A study of Sus scrofa with 14 samples.

Results

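FOLH1 and SLC46A1 are the pair of genes by which the small intestine takes up dietary folate, and both were described in the pig small intestinal segment perfusion (SISP) model after perfusion with digested onion. Folate in food mostly carries a tail of glutamate residues. Folate hydrolase 1 (FOLH1), a peptidase of the brush border, removes this tail. The proton-coupled folate transporter (SLC46A1) then carries the shortened folate across the apical membrane of the enterocyte, driven by the acid layer at the mucosal surface of the upper small intestine. The genes are 2 of the 3020 genes that could be named on the array. They were chosen by their within-pig ratios in these same arrays, so levels, ratios and their mutual tracking are given as a description, without a test.

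The piglets were male, 5 weeks old and 8.2 kg, and anaesthetised throughout. Adjacent segments at 31–58% of the length of the small intestine kept their blood supply and innervation, were filled with 20 ml of fluid and, after 30 min, were perfused at 2 ml per 15 min for 6 h. Saline digest (Sd), the control, went through the same in vitro digestion with pepsin, pancreatin and bile salts without onion. Yellow onion digest (YOd) was given to the other segment of pigs 1, 2 and 4 and white onion digest (WOd) to that of pigs 5, 6, 7 and 8, so that each pig is its own control and each onion was seen in other pigs. Onion digests were diluted in peptone and Sd in a saline solution, at another dilution, so onion and carrier cannot be told apart. Onions of 1 origin each stood for YOd and WOd. Mucosa was scraped, and RNA of each of the 14 segments was hybridised to 1 single-colour Agilent array. Pig 3 was not analysed here.

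On each array, 50.05% to 70.7% of probes stood well above background and 545 to 964 were saturated. The arrays lay on 5 slides. Pigs 2 and 7 were the only animals whose Sd and onion array lay on different slides, with both of these Sd arrays on slide 5 and in scan session 2. The mean ratios of the folate genes and their tracking are therefore also given without these pigs. Enterocyte markers were present throughout. All 19 named enterocyte markers of 32 listed were well above background on every array, 8 of them saturated on every array, and their summed signal, in multiples of the 75th percentile of the array, was 1098 to 2063 in Sd, 1476 to 2121 in YOd and 1532 to 1963 in WOd.

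Each folate gene was read by 1 probe. Their signal stood well above background in every segment and was saturated in none. The reference lists the accession of the FOLH1 probe under the symbol FOLH1B with FOLH1 as a synonym, and the name FOLH1 is used here. Levels below are log2 values of the signal over the 75th percentile of the array, so 0 is the level of that percentile. They are not comparable between the genes, since probes differ in their brightness. The scanner software gave an error near 10.0% for each of these spots, which is 0.20 on the log2 scale for a difference between arrays. It was nearly the same for every spot, so it does not measure variation between segments or pigs.

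FOLH1 differed widely between the Sd segments of the piglets. Its Sd level was 2.69, 1.59 and 3.26 in pigs 1, 2 and 4 and 3.32, 0.77, 1.90 and 4.34 in pigs 5, 6, 7 and 8. The mean was 2.55 ± 1.21 (SD, n = 7), and pig 8 stood 11.9-fold above pig 6. The Sd array of pig 8 had the most outlier spots of all arrays (462) and the lowest share of probes well above background (50.05%). Ordered from high to low, the Sd segments ran pig 8, 5, 4, 1, 7, 2, 6. The neighbours 5 and 4, and 7 and 2, differed by less than 2 errors of a difference (0.20 each), while the other neighbours were farther apart than that. The SD of FOLH1 over the Sd arrays had rank 48 from the top beside 2245 other genes, whose median SD was 0.39.

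SLC46A1 was much more even between the Sd segments. Its Sd level was 4.64, 3.98 and 4.20 in pigs 1, 2 and 4 and 3.67, 3.28, 3.58 and 4.55 in pigs 5, 6, 7 and 8. The mean was 3.99 ± 0.51 (SD, n = 7), and the highest pig stood 2.57-fold above the lowest. The order was pig 1, 8, 4, 2, 5, 7, 6, in which no neighbours differed by more than 2 errors of a difference. Pig 6 was thus the lowest for both genes, and pigs 8 and 1 stood at the top of 1 of the orders each.

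In the YOd pigs, FOLH1 was higher in the onion segment of 2 pigs and level in the other. In pig 1 it went from 2.69 in Sd to 5.22 in YOd, a log2 ratio of 2.53 or 5.77-fold. In pig 4 it went from 3.26 to 5.39, a log2 ratio of 2.13 or 4.37-fold. In pig 2 it was 1.59 in Sd and 1.56 in YOd, a log2 ratio of -0.03. Pigs 1 and 4 reached nearly the same level, above every Sd segment of the 3 pigs, and the YOd segment of pig 2 lay below all of these. The mean ratio was 1.54 ± 1.38 (SD, n = 3) with a standard error of 0.46 in limma. Without pig 2 it was 2.33 (standard error 0.20), a fold 1.72 times larger. Without scaling between arrays, the fold was 5.09 in pig 1 and 2.83 in pig 4, the latter 1.54 times smaller than with scaling.

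SLC46A1 followed the same pigs. It went from 4.64 to 6.24 in pig 1, a log2 ratio of 1.60 or 3.03-fold, and from 4.20 to 5.67 in pig 4, a log2 ratio of 1.47 or 2.76-fold (1.79-fold without scaling). In pig 2 it was 3.98 in Sd and 3.97 in YOd, a log2 ratio of -0.02. The mean was 1.02 ± 0.90 (SD, n = 3) with a standard error of 0.32, and 1.53 (standard error 0.19) without pig 2. For this gene too, the YOd and Sd levels of the 3 pigs overlapped only through pig 2.

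In the WOd pigs, 3 of 4 had more FOLH1 RNA in the onion segment and 1 had less. Pig 5 went from 3.32 in Sd to 5.32 in WOd, a log2 ratio of 2.00 or 3.99-fold. Pig 6 went from 0.77 to 1.97, a log2 ratio of 1.20 or 2.29-fold. Pig 8 started from the highest Sd level of all and went from 4.34 to 5.06, a log2 ratio of 0.72 or 1.64-fold. Pig 7 ran the other way, from 1.90 to 0.76, a log2 ratio of -1.14. The mean was 0.69 ± 1.33 (SD, n = 4) with a standard error of 0.46, and WOd and Sd levels overlapped over most of their range. Without pig 7 the mean was 1.30 (standard error 0.26), a fold 1.53 times larger.

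SLC46A1 again kept the signs of FOLH1. It went from 3.67 to 5.49 in pig 5 (log2 ratio 1.82, 3.53-fold), from 3.28 to 4.33 in pig 6 (1.05, 2.07-fold) and from 4.55 to 5.36 in pig 8 (0.81, 1.75-fold). In pig 7 it went from 3.58 to 2.76, a log2 ratio of -0.83. The mean was 0.71 ± 1.11 (SD, n = 4) with a standard error of 0.39, and 1.23 (standard error 0.24) without pig 7.

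**Figure D1:**
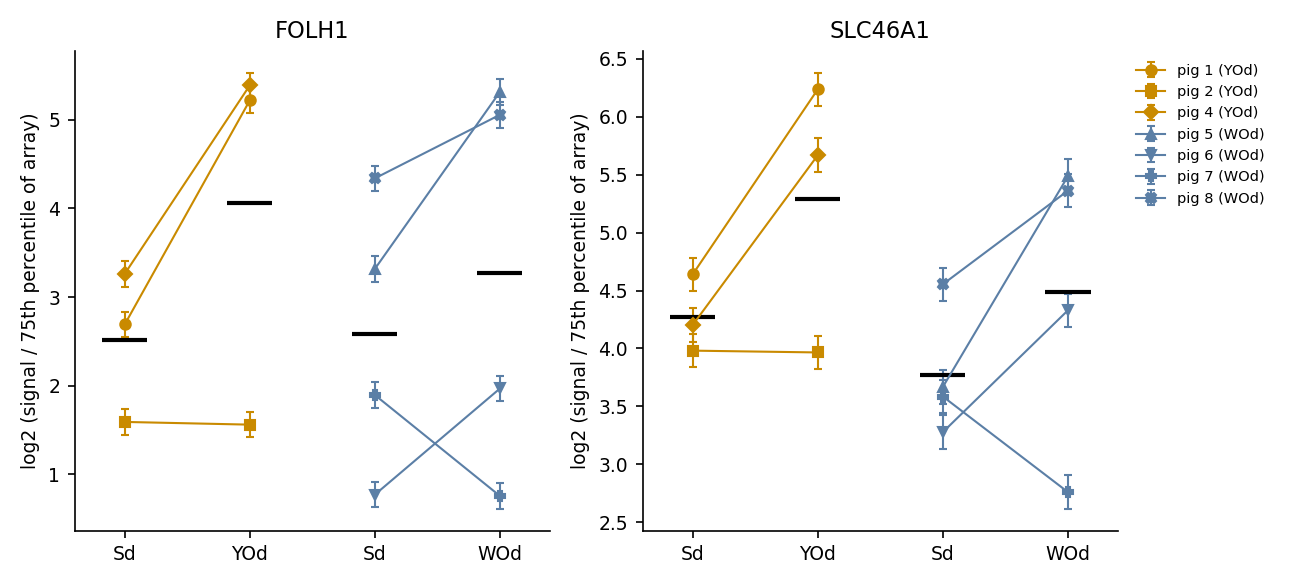
Level of FOLH1 (left) and SLC46A1 (right) in the Sd and onion segment of each pig, as log2 of the signal over the 75th percentile of the array. Lines join the segments of 1 pig, error bars are the spot error of the scanner software and black bars are group means. Lines of pigs 1, 4, 5, 6 and 8 rise for both genes, that of pig 2 is flat and that of pig 7 falls.

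Over the 7 pigs, the mean log2 ratio of onion over Sd was 1.06 ± 1.31 (SD, with a limma standard error of 0.39) for FOLH1. It was 0.84 ± 0.96 (limma standard error 0.29) for SLC46A1. Each gene exceeded 1.5-fold up in 5 of 7 pigs, which 9 of 2400 genes did (0.375%). The ratios chose the genes, so nothing is read from that share. The pigs that did not follow were pigs 2 and 7, whose arrays lay on different slides, and the part of the slide in this was not tested. Without both, the mean was 1.71 ± 0.74 (SD, n = 5) for FOLH1 and 1.35 ± 0.41 (n = 5) for SLC46A1, with all 5 pigs above 1.5-fold. Pig 2 had few changes of any kind, with 50 genes above 1.5-fold up and 14 down, against 134 to 440 up and 90 to 200 down in each of the other pigs. Pig 7 had 250 genes up and 200 down.

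The place of the folate genes among 2400 genes differed between the pigs. Since the ratios chose the genes, their high ranks are a description and nothing is read from them. Ranked from the top by ratio, FOLH1 was number 6, 8, 5, 15 and 76 in pigs 1, 4, 5, 6 and 8, where SLC46A1 was number 20, 31, 8, 28 and 58. In pig 2 they were number 1513 and 1442, in the middle of the list, and in pig 7 they were number 2348 and 2281, near its bottom.

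The size of the difference between the onions depended on the pigs included. The mean ratio of the YOd pigs exceeded that of the WOd pigs by 0.85 (standard error 0.79) for FOLH1 and by 0.30 (standard error 0.62) for SLC46A1. For FOLH1 the excess was 1.63 (standard error 0.76) without pig 2, 0.24 (0.63) without pig 7 and 1.02 (0.40) in the fit blocked by slide, where both pigs carry no weight. For SLC46A1 these values were 0.82 (0.64), -0.21 (0.46) and 0.31 (0.34). The ratios of pigs 1 and 4 for FOLH1, 2.53 and 2.13, lay above the 2.00 of the highest WOd pig, while for SLC46A1 the highest ratio of all was in WOd pig 5.

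FOLH1 and SLC46A1 tracked each other closely in the response and loosely in the control segments. Over the 7 within-pig ratios, Pearson's r was 0.975 and Spearman's rho 0.893, and r was 0.964 without pigs 1 and 7, the pigs farthest from the median. Without pigs 2 and 7 r was 0.887 (n = 5). The slope was 0.71, so SLC46A1 moved by 0.71 log2 units for each unit of FOLH1. The gap between the genes was widest in YOd pigs 1 and 4, where FOLH1 exceeded SLC46A1 by 0.93 and 0.66, and between -0.31 and 0.18 in all other pigs. The genes of a pair of arrays share RNA, slide and scaling factor, so r is a description. Leaving out 1 pig at a time, or changing the normalization or background correction, gave an r of 0.944 to 0.985.

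**Figure D2:**
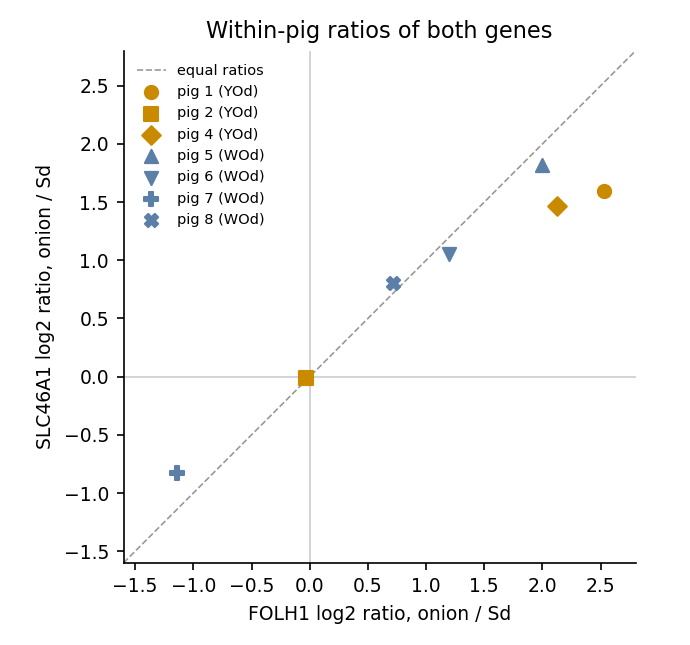
Within-pig log2 ratio (onion over Sd) of SLC46A1 against that of FOLH1, 1 point per pig, with YOd pigs in ochre and WOd pigs in blue; the dashed line marks equal ratios. Points lie along a line through pig 7 at the lower left, pig 2 at the origin and pigs 1, 4 and 5 at the upper right (r 0.975).

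Over the 7 Sd levels r was 0.686 and rho 0.571, and r was 0.201 without pigs 6 and 8, so the relation between the Sd levels rested on these pigs. It was 0.696 without pigs 2 and 7. Over the 7 onion levels r was 0.945 and rho 0.893, and r was 0.880 without pigs 2 and 7. The Sd level of a gene and its own ratio gave an r of 0.347 for FOLH1 and 0.282 for SLC46A1. For FOLH1 this rose to 0.832 without pigs 6 and 8, and without pigs 2 and 7 the values were -0.061 and -0.060, so this r depended on the pigs included.

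The genes most like FOLH1 over the within-pig ratios were sought among the 2181 other genes above the floor on all 14 arrays. SLC46A1 was the first of them. After it came PGRMC2 (r 0.959), a membrane protein that binds haem, GALM (0.956), the mutarotase that interconverts the anomers of galactose, FAM8A1 (0.954), and SCARB1 (0.953), the scavenger receptor for cholesterol and carotenoids. SCARB1 was saturated on 6 arrays. The ratios of FAM8A1 stayed between -0.29 and 0.46, so likeness in pattern here does not mean likeness in size. Seen from SLC46A1, GALM came first (0.979), FOLH1 second, and then NQO1 (0.940), the quinone reductase, UROS (0.939), an enzyme of haem synthesis, and VAPB (0.938). Of the 2181 genes, 20 had an r over 0.9 with FOLH1 and 27 with SLC46A1.

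NQO1 was the only other gene of these likeness lists among the 9 genes above 1.5-fold up in 5 pigs. Its ratios were 1.34, 0.15, 1.21, 1.49, 1.17, -1.65 and 1.16 in pigs 1, 2, 4, 5, 6, 7 and 8, the same signs as the folate genes in all pigs but pig 2. The place of SLC46A1 was less firm than its r. Under the other normalizations, background corrections and probe rules and with single pigs left out, it ranked between 1 and 7 for FOLH1, and FOLH1 between 1 and 6 for SLC46A1.

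In the Sd levels the pair ranked far lower, SLC46A1 at 381 for FOLH1 and FOLH1 at 314 for SLC46A1 of 2245 genes. The genes most like FOLH1 there were ENTPD1 (r 0.967), an ectoenzyme that degrades extracellular ATP, KDM1A (0.947), a histone demethylase, TDRD6 (0.942), SMAD4 (0.942), the shared mediator of TGF-beta signals, and VPS33A (0.933). For SLC46A1 they were ENO3 (0.974), NAXE (0.969), PARK7 (0.965), NR6A1 (0.961) and TPI1 (0.942). ENO3 and TPI1 are glycolytic enzymes, and NAXE repairs damaged NADH. The lists for the Sd levels and for the ratios had no gene in common.

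The other genes of folate uptake and efflux gave no call. Of 13 listed, FOLR1, FOLR2 and ABCG2 were measured besides the pair. FOLR1 and FOLR2, receptors that bind folate with high affinity, had ratios between -0.33 and 0.46 and between -0.25 and 0.29. Neither passed the thresholds of a raw p of 0.05 and 1.5-fold in any comparison, where between 1.19% and 4.53% of all tested genes did. Over the 7 pigs the log2 change was 0.10 (SE 0.11, limma adjusted p 0.757) for FOLR1 and 0.09 (SE 0.10, adjusted p 0.749) for FOLR2, and both changes turned negative without scaling between arrays. ABCG2, an efflux pump that also carries folates, had ratios of 0.28, 0.22, 0.87, 0.31, 0.62, -0.16 and -0.18 in pigs 1, 2, 4, 5, 6, 7 and 8. Its change was 0.46 in YOd/Sd (SE 0.18, limma raw p 0.039, adjusted p 0.386), short of 1.5-fold, and 0.15 in WOd/Sd (SE 0.19, adjusted p 0.999). The median change of the 3 genes over the 7 pigs was 0.10, against 0.09 for all 2400 genes. Over the 7 within-pig ratios, r with FOLH1 was 0.392 for FOLR1, 0.171 for FOLR2 and 0.631 for ABCG2. Without pigs 2 and 7 (n = 5) it was 0.974, 0.821 and 0.459, against 0.887 for SLC46A1. With SLC46A1, r without these pigs was 0.893, 0.618 and 0.352. In those pigs FOLR1 thus followed the pattern of FOLH1 as closely as SLC46A1 did, with much smaller ratios.

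**Figure D3:**
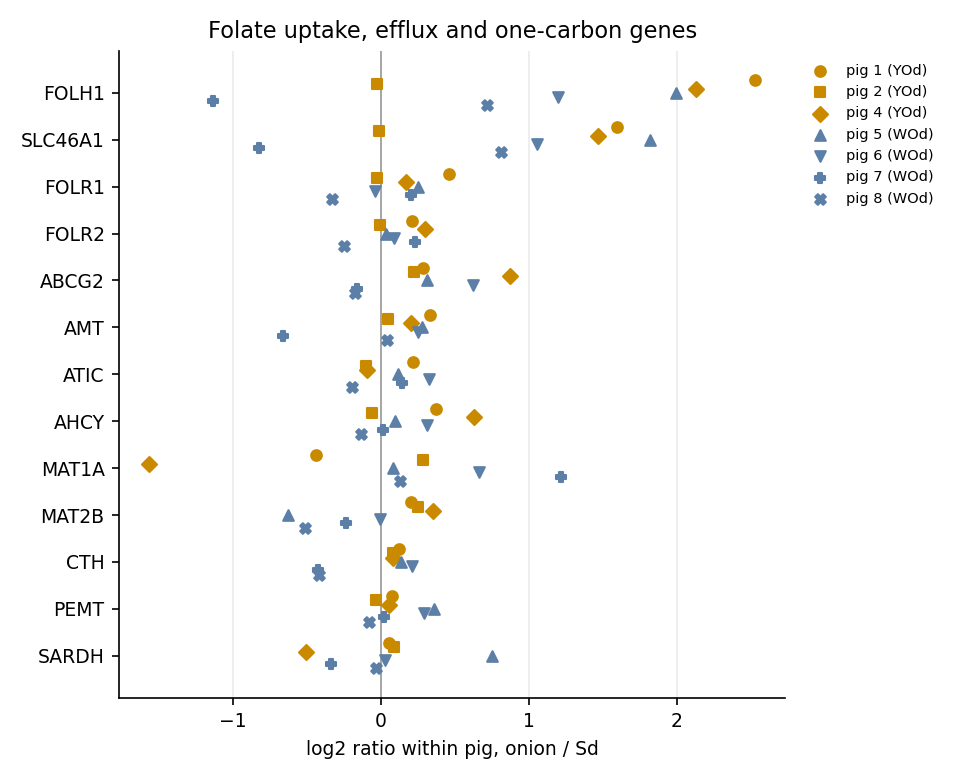
Within-pig log2 ratios (onion over Sd) of measured genes of folate uptake, efflux and one-carbon metabolism, 1 symbol per pig, with YOd pigs in ochre and WOd pigs in blue. FOLH1 and SLC46A1 spread from about -1 to 2.5, while all values of FOLR1, FOLR2 and ABCG2 and of most enzymes lie within 1 log2 unit of 0.

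The enzymes that use folate inside the cell gave no call in either onion. Of 32 listed genes of folate and one-carbon metabolism 12 were named, and 9 were above the floor and tested. None passed the thresholds in YOd/Sd, WOd/Sd or over the 7 pigs, where 4.53%, 1.19% and 1.25% of all tested genes did. Their median change was 0.03, 0.07 and 0.05 in these comparisons, against 0.14, 0.05 and 0.09 for all genes. FTCD, BHMT and GNMT, enzymes known from the liver, lay at the floor on every array. MAT1A and MAT2B, of the synthesis of S-adenosylmethionine, passed the thresholds when the effect of WOd was subtracted from that of YOd, at -1.10 (SE 0.45, limma raw p 0.037) and 0.61 (SE 0.21, raw p 0.018), with an adjusted p of 0.852 for both. There 3.52% of all genes passed, and the call was lost under 9 of 17 alternatives for MAT1A and 10 of 17 for MAT2B.

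Transport of the other water-soluble vitamins showed no call in these 3 comparisons either, with 6 genes tested of 24 listed. SLC52A2, a riboflavin transporter, was positive in 6 of 7 pigs at 0.41 over the 7 pigs (SE 0.13, limma raw p 0.0088, adjusted p 0.610), short of 1.5-fold. SLC23A2, a vitamin C transporter, passed for the same difference at -0.68 (SE 0.23, limma raw p 0.016, adjusted p 0.852), with 0.53 in WOd/Sd and -0.15 in YOd/Sd. This call was lost under 6 of 17 alternatives.

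Folate absorption belongs to the upper small intestine, so both genes were set beside markers of position along it. Of 10 tested proximal markers, PDX1, CCK and MLN rose in YOd/Sd, PDX1 in WOd/Sd, and PDX1 and MLN over the 7 pigs by the raw thresholds, which 4.53%, 1.19% and 1.25% of all genes passed. The median change of the 6 that were never saturated was 0.66, 0.19 and 0.38 in these comparisons, and that of all 10 was 0.32, 0.10 and 0.16, against 0.14, 0.05 and 0.09 for all genes. The YOd/Sd calls of PDX1, CCK and MLN were lost under 5, 6 and 6 of 13 alternatives. PDX1, a transcription factor of the duodenum and pancreas, had ratios of 1.78, -0.02, 2.00, 0.93, 1.41, 0.05 and 1.46 in pigs 1, 2, 4, 5, 6, 7 and 8. It was thus raised in the same 5 pigs as FOLH1 and SLC46A1 and near 0 in pigs 2 and 7. These pigs are not particular to PDX1. All 9 genes above 1.5-fold up in at least 5 pigs were raised in them, among them AKR1C1, DGAT2 and SLC16A1, which are on no marker list. Over the 7 pigs its change was 1.09 (SE 0.25, limma raw p 0.0012, adjusted p 0.610), in YOd/Sd 1.25 (SE 0.38) and in WOd/Sd 0.96 (SE 0.25). These values are of its brightest probe, and the mean of its probes gave only 0.58, 0.63 and 0.55.

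MLN, the hormone motilin of the upper gut, had ratios of 3.30, -0.01, 2.17, 2.26, 0.14, 0.08 and 0.64 in these pigs, with 2 of its 14 values at the floor. Its change over the 7 pigs was 1.23 (SE 0.39, limma adjusted p 0.610). CCK, cholecystokinin, had 1.55, 0.12, 1.07, 0.20, 0.54, 0.22 and -0.11, and its change in YOd/Sd was 0.92 (SE 0.27, limma adjusted p 0.386). Both were high in pigs 1 and 4, and neither fell in pig 7.

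The remaining 7 proximal markers had no call. S100G, RBP2 and APOA4 were saturated on all 14 arrays and FABP1 on 13, so their ratios mostly carry the scaling of the arrays. GATA4 had ratios between -0.77 and 1.04, CYBRD1 between -0.45 and 0.45, and TMPRSS15, enteropeptidase, between -0.80 and 0.97.

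Of the 3 tested distal markers, SLC10A2, the ileal bile acid transporter, ran opposite to the folate genes. Its ratios were -1.01, -0.0040 and -2.57 in pigs 1, 2 and 4 and -1.58, -0.51, 1.18 and -0.69 in pigs 5, 6, 7 and 8. It was lower in the 5 pigs in which FOLH1 and SLC46A1 were higher, and higher in pig 7. In YOd/Sd it fell by the raw thresholds, at -1.19 (SE 0.44, limma raw p 0.031, adjusted p 0.386), a call lost under 6 of 12 alternatives, while over the 7 pigs its -0.74 (SE 0.35, adjusted p 0.652) did not pass. It was well above background on 12 of 14 arrays. FABP6, the ileal bile acid binding protein, had ratios of 1.30, 0.08, -0.70, 1.53, -6.04, 0.87 and -0.37. The Sd segment of pig 6, which gave the low FABP6 ratio, also stood apart in the B cell marker CD79A, with a ratio of -4.18. Without pig 6 the mean ratio over the other pigs was 1.03 for FOLH1 and 0.81 for SLC46A1, and r between them was 0.976. GCG, proglucagon, ran from -1.27 to 0.56. The median change of the 3 over the 7 pigs was -0.47.

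Over the 7 within-pig ratios, r with FOLH1 was 0.827 for PDX1, 0.852 for MLN, 0.667 for CCK and -0.873 for SLC10A2, and r with SLC46A1 was 0.795, 0.777, 0.494 and -0.877. Without pigs 2 and 7 these values were 0.297, 0.925, 0.810 and -0.563 with FOLH1 and -0.139, 0.826, 0.459 and -0.563 with SLC46A1 (n = 5), so the likeness of PDX1 rested on these pigs. The summed signal of the 10 proximal markers, in multiples of the 75th percentile, was 370.3 to 712.1 in Sd, 482.1 to 723.9 in YOd and 492.8 to 676.5 in WOd. Most of this sum came from the 4 markers with saturated spots, so it mostly carries the scaling of the arrays. The sum of the 3 distal markers was 2.24 to 93.0 in Sd, 2.31 to 18.5 in YOd and 1.66 to 8.49 in WOd. The paper states that onion digest and Sd were assigned to segments and piglets by a Latin square. The labels used here do not give which segment of a pair lay upstream in each pig. The part of segment position in the ratios of the folate genes was not tested.

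**Figure D4:**
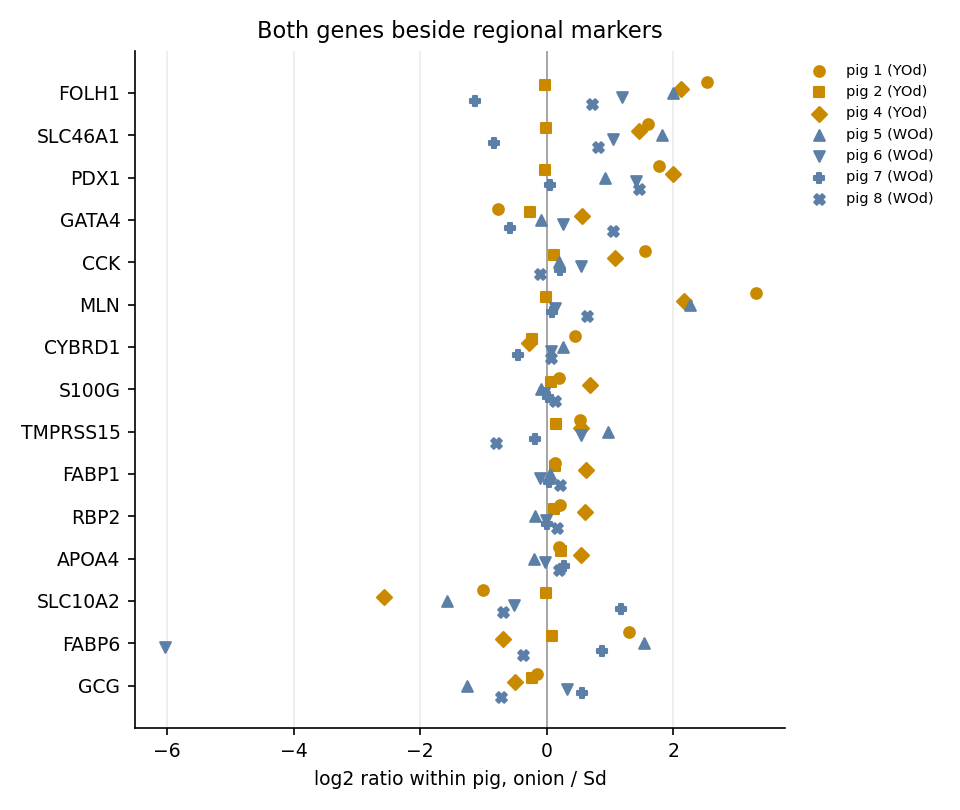
Within-pig log2 ratios (onion over Sd) of FOLH1 and SLC46A1 beside the 10 measured proximal markers (PDX1 to APOA4) and the 3 distal markers (SLC10A2, FABP6, GCG), 1 symbol per pig, with YOd pigs in ochre and WOd pigs in blue. PDX1 is raised in the same 5 pigs as the folate genes, and SLC10A2 is lowered in them and raised in pig 7.

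Markers of other cells of the scraping gave no call in YOd/Sd, WOd/Sd or over the 7 pigs: 0 of 19 enterocyte, 0 of 5 crypt, 0 of 3 goblet, 0 of 6 enteroendocrine, 0 of 7 lymphocyte and myeloid and 0 of 3 smooth muscle markers. Of all tested genes 4.53%, 1.19% and 1.25% passed in these comparisons, so the absence of calls in lists this short says little. At a limma raw p under 0.05 without the fold, between 0 and 2 genes of each of these lists passed in a comparison. The share of all genes at that p is not given here, so nothing is read from these counts. Of the 19 enterocyte markers 12 were saturated on at least 1 array, which limits the change they can show, and the other 7 had a median change of 0.07 over the 7 pigs. The median change over the 7 pigs was 0.14 for enterocyte, -0.29 for crypt, 0.18 for goblet, 0.16 for enteroendocrine, 0.08 for lymphocyte and myeloid and -0.11 for smooth muscle markers. Summed lymphocyte and myeloid signal was 2.76 to 9.37 in Sd, 5.56 to 7.59 in YOd and 2.87 to 10.2 in WOd, and summed crypt signal 21.9 to 44.9, 22.7 to 45.0 and 22.8 to 38.9. In whole scrapings, more enterocytes and more RNA per enterocyte cannot be told apart.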

How the data were processed

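Mucosal scrapings of 1 Sd and 1 onion segment of each of 7 pigs were measured. The authors deposited the scanner output of Feature Extraction 10.7.3.1, whose processed signal is a linear intensity with the background subtracted, and a table of log2 values of 28369 probes, floored and of unnamed normalization. From the intensity, spots marked as outliers (5 to 462 per array) were left out, spots of a probe were averaged, and signals were scaled to the 75th percentile of their array, floored at the pooled 40th percentile (log2 -4.43) and turned into log2 values. Scaling sets the 75th percentile of every array to the same value, and ratios are relative to it. It did not set the median gene to no change. The median ratio of all genes was 0.14 in YOd/Sd, 0.05 in WOd/Sd and 0.19 in each of pigs 1 and 4. Saturation hides changes of the brightest genes. Of 43603 probes, 6686 were named through a RefSeq accession and the Sscrofa11.1 reference, used for names only, and a gene with several probes was read by its brightest.

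The groups came from the sample titles. YOd/Sd, WOd/Sd, the 7 pigs together, and the difference of the YOd and WOd effects were fitted across all genes in limma 3.58.1 (R 4.3.3). The pig entered as a block, following the paired analysis of the study's methods. Arrays of the same pig, less their group means, had an r of 0.517 to 0.745. A call was a raw p under 0.05 and over 1.5-fold, with Benjamini-Hochberg values beside it. In these fits no gene of any list passed an adjusted p of 0.05. The fits were tested on simulated data. Python 3.11.15 served for other steps. The pigs are separate animals, and their number limits the precision.

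The members and lists were chosen with earlier results of these data known. The genes named were the folate genes, all measured genes of folate uptake, calls in the folate and vitamin lists in the 4 comparisons, the 5 genes most like each folate gene in the ratios and in the Sd levels, calls of the other lists, and all measured proximal and distal markers; SLC52A2 and the enzymes at the floor were added after their values were seen. The lists were folate uptake and efflux, folate and one-carbon enzymes, other water-soluble vitamin transport, enterocyte, proximal, distal, crypt, goblet, enteroendocrine, lymphocyte and myeloid, and smooth muscle genes. Alternatives covered the normalization, background correction, floor, filter, probe rule, number of genes, the log2 table of the authors, the fit without the replicate block, slide and left-out pigs. The exclusion of pigs 2 and 7 together and of saturated genes from list medians was chosen after seeing the data. Probe sequences were not used here, and 1 measured gene of the one-carbon list, counted with its list, is not reported here.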

Additional observations from a re-analysis of the deposited data

Results flagged for a closer look

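Outliers were sought with Dixon's test in 42 sets of 4 or 7 values, for FOLH1 and SLC46A1 (levels and ratios) and for the other folate uptake genes and the proximal and distal markers (ratios). By chance about 1 set in 20 stands out, and 2 did. Neither was a set of FOLH1 or SLC46A1. The ratio of FABP6 in pig 6 was -6.04, against -0.70 to 1.53 in the other pigs. The ratio of S100G in pig 4 was 0.68, against -0.08 to 0.19 in the other pigs, for a probe saturated on all 14 arrays.

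The effect of the onions differed by limma's raw thresholds for 4 genes of the lists, with an adjusted p of 0.852 or higher for each. YOd minus WOd, the effect was -1.10 for MAT1A (-0.58 in YOd/Sd and 0.52 in WOd/Sd), 0.61 for MAT2B (0.27 and -0.35), -0.68 for SLC23A2 (-0.15 and 0.53) and 0.69 for CD3D, a T cell marker (0.20 and -0.49). Of all genes tested for this difference, 3.52% passed these thresholds. No explanation was tested.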

How the results depend on the processing

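The ratios of FOLH1 and SLC46A1 in YOd/Sd, WOd/Sd and over the 7 pigs kept their sign under every alternative run. They also stayed within 1 SD between pigs, but leaving out 1 pig cannot move a mean by that much. The floor, filter, probe rule and replicate block do not alter the mean ratios of these genes. Only the normalization, background correction, table of the authors, slide and left-out pigs could move them. Their range over these was 0.81 to 1.71 for FOLH1 and 0.68 to 1.35 for SLC46A1 over the 7 pigs, both highest when the slide was added as a block, which leaves pigs 2 and 7 without weight. With each pig left out the range was 0.81 to 1.42 and 0.68 to 1.12. For SLC46A1 the difference between YOd and WOd pigs changed sign without pig 7 (range over the pigs left out -0.21 to 0.82). Each gene had 1 probe, so the mean of probes gave the same values and the alternative of another probe could not be run. Pearson's r of the ratios was 0.887 without pigs 2 and 7, an exclusion chosen after seeing the data.

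The counts of calls over all genes (YOd/Sd 111, WOd/Sd 29, all pigs 30, difference between the onions 88) moved far more. They were 1303, 327, 216 and 1570 over every probe, 10, 12, 16 and 38 in the authors' processed values, and 325, 87, 77 and 191 with the slide as a block. Without the replicate block they were 20, 10, 10 and 5. Normexp gave 65, 12 and 48 in YOd/Sd, WOd/Sd and the difference, and no filter on dim genes gave 20, 17 and 47. Quantile normalization gave 63 in YOd/Sd. With each pig left out the counts ran from 56 to 327, 44 to 87, 18 to 49 and 44 to 153. The highest of the first came without pig 2, and of the second without pig 7. Without scaling, 16 genes passed over the 7 pigs, and 6.86% of the calls in YOd/Sd were increases instead of 79.3% (25.0% instead of 76.7% over the 7 pigs), since the median of all genes in YOd/Sd moved from 0.14 to -0.16.

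The sign of FOLR1 turned without scaling (YOd/Sd -0.11, WOd/Sd -0.012, all pigs -0.055), with the slide as a block in WOd/Sd (-0.041) and with single pigs left out there (-0.058 to 0.14). That of FOLR2 turned without scaling (-0.14, -0.0046 and -0.064), with the slide as a block in WOd/Sd (-0.042) and without pig 7 there (-0.042 to 0.12 over the pigs left out). ABCG2 in WOd/Sd ran from -0.010 to 0.26 over the pigs left out. The call of PDX1 over the 7 pigs held under 15 of 17 alternatives. It was lost without the replicate block and with the mean of its probes, as was its call in WOd/Sd, and that of MLN over the 7 pigs was lost without the replicate block. In YOd/Sd, PDX1, MLN, CCK and SLC10A2 each lost the call with no filter on dim genes, in the authors' processed values, without the replicate block and without pig 4. PDX1, MLN and CCK also lost it without pig 1, MLN and SLC10A2 under quantile normalization, CCK without scaling and SLC10A2 under normexp. Leaving out pig 2, whose ratios of these 4 genes were near 0, leaves only pigs 1 and 4 in YOd/Sd. The limma adjusted p there was 0.0038 for PDX1 and MLN, 0.019 for CCK and 0.038 for SLC10A2. The fit blocked by slide gives pig 2 no weight, so in YOd/Sd it rests on the same pigs and is no separate support. Its limma adjusted p was 0.0016 for PDX1, 0.0015 for MLN, 0.011 for CCK and 0.021 for SLC10A2. For PDX1 over the 7 pigs it was 0.0042, with pigs 2 and 7 without weight. Of the calls on the difference between the onions, CD3D lost its own under 7 of 17 alternatives. The cause was not tested.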
